A study of Mus musculus with 9 samples.

Results

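The classical axon guidance ligands and receptors were described in mouse spinal cord 7 days after injury. They are the semaphorins of classes 3 to 7, plexins, neuropilins, ephrins, Eph receptors, netrins with their receptors Dcc and Unc5, and Slits with their Robo receptors. Members were taken by gene symbol, by a rule that reads no measured value but was set with earlier results of these data known. The rule found 71 of the 34745 genes listed, namely 34 ligands, 34 receptors and 3 antisense RNAs of the Plxna4 locus. The 9 libraries came from spinal cord of wild type C57BL/6 mice aged 7 to 9 weeks. They fall into 3 libraries from injured cord given hyperbaric oxygen (HBO), 3 from injured cord without it (SCI) and 3 controls (sham), all from day 7. The series description calls the controls sham, while their own labels say control and no injury, so it is not known whether they had surgery. Hyperbaric oxygen is oxygen breathed at raised pressure. The sources used here do not state the level and method of injury, the oxygen schedule, the length of cord taken, or whether each library is 1 animal. The p-values below therefore reflect how far these libraries differ among themselves, which may be technical.

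Guidance cues steer growing axons by attraction or repulsion, through receptors on the growth cone that reorganise its cytoskeleton. Secreted class 3 semaphorins mostly act through neuropilins paired with plexins, membrane semaphorins act on plexins directly, ephrins signal to Eph receptors by cell contact, netrins attract through Dcc and repel through Unc5 receptors, and Slits repel through Robo receptors. In the adult cord many of these genes are also made by glia, meningeal cells, vessels and immune cells. Several are studied as barriers to axon regrowth after injury.

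Assigned counts were 12463783 to 14142161 in the HBO libraries, 13726337 to 15715484 in the SCI libraries and 11159587 to 13496372 in the sham libraries. The members took 0.402% to 0.476% of them. Of the 71 members, 69 passed the filter on low counts. The antisense RNAs Plxna4os2 and Plxna4os3 had 0 counts in all 9 libraries, which allows up to 0.191 to 0.269 CPM depending on the library. Levels below are CPM, counts per gene scaled to a common library size, unless given as FPKM (fragment counts per kilobase of gene, scaled to library size), the authors' unit, which allows for gene length.

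The markers of spinal cord tissue were present in every library, and injured cord differed from sham in its cell type markers. Summed over 10 markers, fibroblasts and meninges stood at 6482 to 12908 CPM in HBO, 5779 to 13544 CPM in SCI and 452 to 984 CPM in sham. The 10 neuron markers summed to 1737 to 3361 CPM in HBO, 1489 to 2524 CPM in SCI and 4609 to 5442 CPM in sham. All 10 fibroblast and meningeal markers, 9 of 10 for microglia and macrophages and 8 of 9 for endothelium were higher in SCI than in sham at an adjusted p under 0.05, and 9 of 10 neuron markers were lower. Endothelial markers summed to 443 to 499 CPM in HBO, 469 to 585 CPM in SCI and 290 to 342 CPM in sham. Astrocyte markers overlapped, at 11566 to 13748.5 CPM in HBO, 12175 to 14335.5 CPM in SCI and 9499 to 12740 CPM in sham. Oligodendrocyte markers overlapped too, at 12785 to 14232 CPM in HBO, 10116 to 12570 CPM in SCI and 11868 to 14443 CPM in sham. In SCI vs sham, 2 of 8 astrocyte markers rose and 2 fell, and 2 of 8 oligodendrocyte markers fell. None of the 6 ependymal markers passed an adjusted p of 0.05 in any comparison. Schwann cell markers were 1013 to 1504 CPM in HBO, 775 to 1655 CPM in SCI and 142 to 584 CPM in sham, with the highest sham value in sham 3. Muscle markers reached 693 CPM in SCI 1, against 42.8 and 123.4 CPM in the other SCI libraries, 39.4 to 148 CPM in HBO and 58.4 to 89.3 CPM in sham. Neutrophil markers reached 366 CPM in HBO 3, against 36.2 and 84.7 CPM in the other HBO libraries, 29.6 to 61.9 CPM in SCI and 26.2 to 87.4 CPM in sham. None of the markers was at 0 in all libraries. These shifts run alongside every comparison with sham below, and their part in the results was not tested. In bulk tissue, fewer cells of a type and less RNA per cell cannot be told apart.

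**Figure D1:**
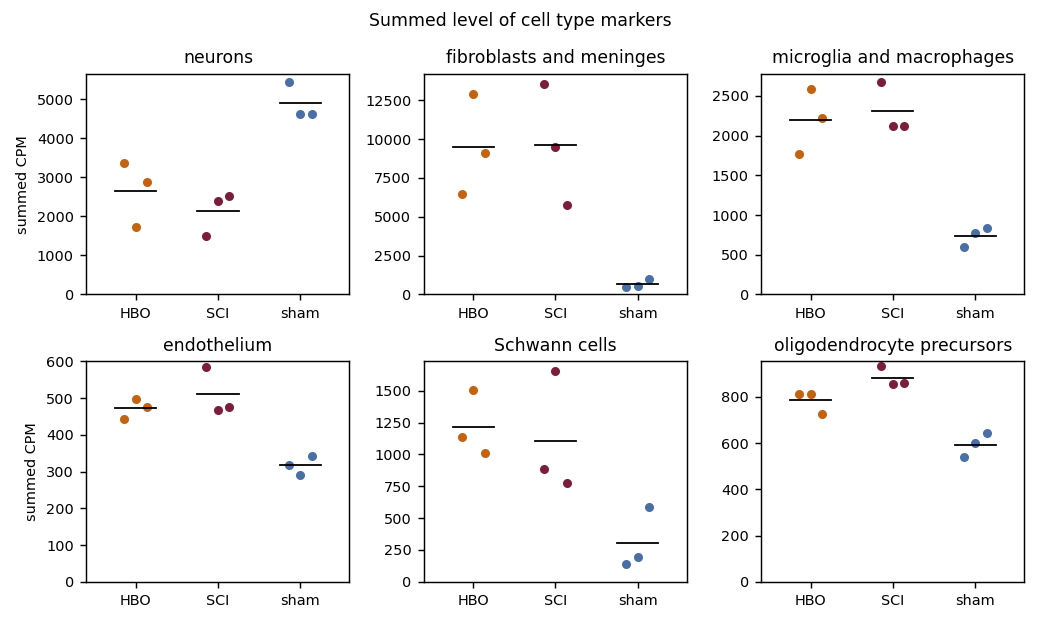
Summed CPM of selected marker lists (vertical axis) in the 3 HBO, 3 SCI and 3 sham libraries (points, with the group mean as a line). Neuron markers were lower and the other 5 lists shown higher in the injured libraries than in sham, with no overlap between injured and sham libraries.

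By FPKM the leading ligand was the same in all 3 groups. It was Efnb3, a transmembrane ephrin, at 49.7 ± 9.16 FPKM in HBO, 47.1 ± 6.48 FPKM in SCI and 64.1 ± 5.27 FPKM in sham (SD, n = 3 each). Sema7a, a lipid-anchored semaphorin, came second at 35.9 ± 3.18 FPKM in HBO, 35.6 ± 3.01 FPKM in SCI and 40.6 ± 3.32 FPKM in sham. The next ligand was Sema5a, at 18.1 ± 0.764 FPKM in HBO, 18.3 ± 1.99 FPKM in SCI and 16.2 ± 2.35 FPKM in sham. Among receptors the order differed between injured and sham cord. In HBO, Nrp1 (33.9 ± 11.0 FPKM) and Plxnb2 (32.5 ± 5.78 FPKM) led, and in SCI Plxnb2 (37.2 ± 5.08 FPKM) and Nrp1 (34.0 ± 5.67 FPKM) led. In neither group did these neighbours differ beyond their spread. Sham was led by Plxnb1 (19.8 ± 1.49 FPKM), Unc5b (17.5 ± 2.57 FPKM), Robo1 (17.3 ± 1.12 FPKM), Plxnb3 (16.1 ± 1.18 FPKM) and Plxna4 (15.9 ± 0.825 FPKM). Neighbours in this sham order differed by less than the larger SD of each pair, except Robo1 and Plxnb3.

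Injury was set against sham first. In SCI, 20 members rose and 15 fell of the 69 tested, by edgeR's quasi-likelihood test with Benjamini-Hochberg adjustment over all 17901 genes tested at 0.05. That is 50.7% of members called, against 36.6% of all genes. The members called higher were 29.0% against 20.0% of all genes, and those called lower 21.7% against 16.6%. At an unadjusted p under 0.05 there were 47 members (68.1%), against 46.4% of all genes. The groups did not overlap for 49 members (71.0%), against 54.0% of all genes. The median log2 fold change was 0.09 over the members and 0.00 over all genes tested. Receptors held more of the calls than ligands: 12 of 34 receptors rose and 11 fell, while 8 of 34 ligands rose and 4 fell, a difference between the roles that was not tested. Set beside the 36.6% of all genes, the share of ligands called was close to it and that of receptors above it. The antisense RNA Plxna4os1 had 1.34, 2.86 and 0.662 CPM in HBO, 1.76, 1.73 and 1.73 CPM in SCI and 0.878, 0.616 and 0.148 CPM in sham. SCI lay above sham without overlap, with a change of 1.67 ± 0.60 (adjusted p = 0.0511) that passed with no filter on low counts (adjusted p = 0.0490), in a fit of SCI and sham alone (adjusted p = 0.0257) and by DESeq2 (adjusted p = 0.0391).

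**Figure D2:**
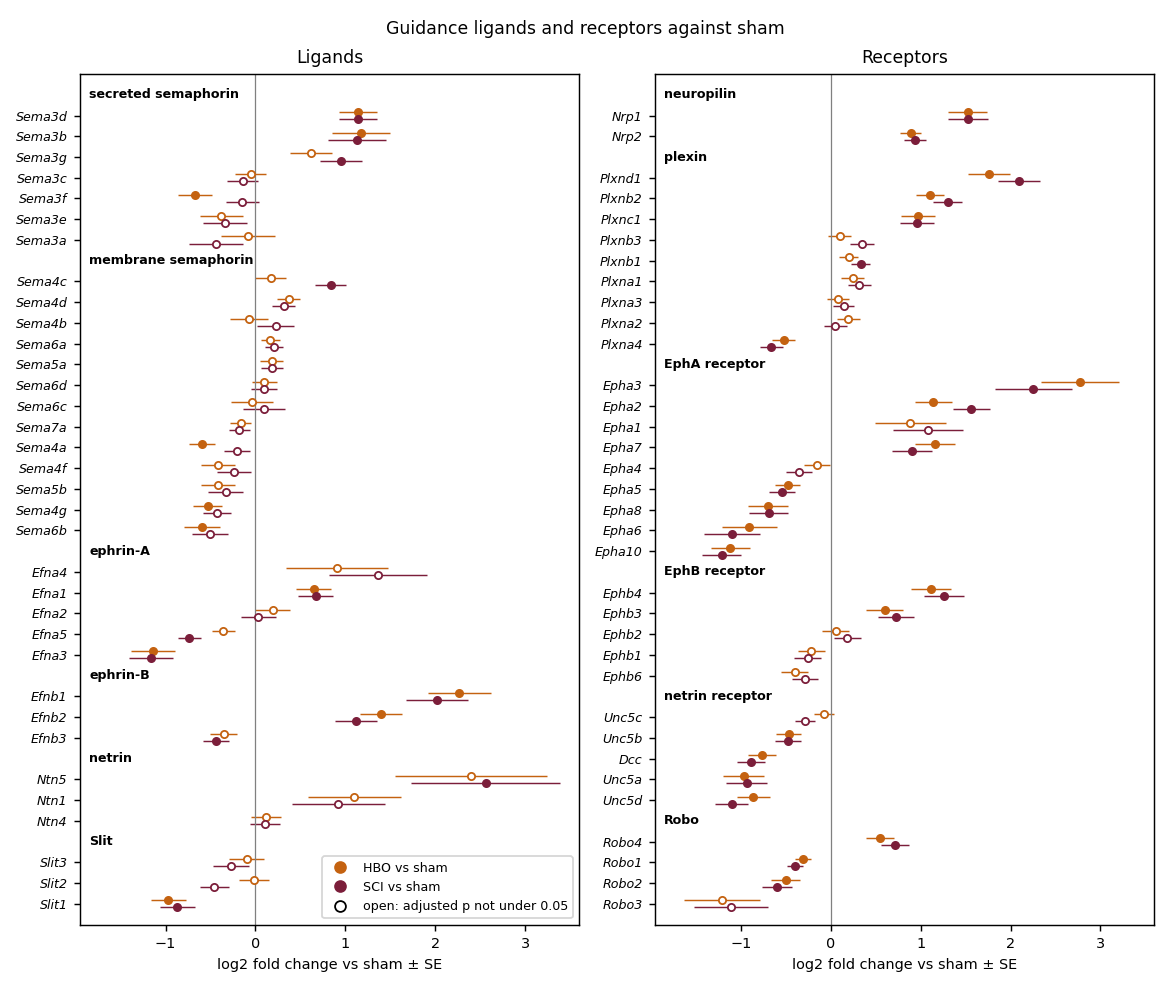
Log2 fold change against sham with its standard error (horizontal axis) for the 34 ligands and 34 receptors, by family, in HBO and SCI. Filled points passed an adjusted p of 0.05, and both comparisons use the same 3 sham libraries. Neuropilins and most called plexins lie right of 0, and all 5 netrin receptors lie left of it.

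Of the 7 class 3 semaphorins, Sema3b, Sema3d and Sema3g rose, by 0.95 to 1.14 on the log2 scale, and none fell. The call of Sema3b was lost without sham 1 (0.86, adjusted p = 0.0685), sham 2 (1.11, adjusted p = 0.0632) or SCI 2 (0.82, adjusted p = 0.0797). Sema3a, a repellent, and Sema3c, an attractant for several axon types, were not called. Sema3a stood at 40.6, 17.4 and 42.3 CPM in HBO, 22.0, 24.4 and 32.1 CPM in SCI and 28.8, 43.6 and 34.1 CPM in sham, and Sema3c at 57.0, 48.2 and 45.6 CPM in HBO, 43.9, 39.4 and 58.6 CPM in SCI and 43.5, 52.4 and 60.6 CPM in sham. For both, the SCI and sham libraries overlapped, with log2 fold changes of -0.44 ± 0.30 for Sema3a (adjusted p = 0.283) and -0.14 ± 0.17 for Sema3c (adjusted p = 0.563).

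Both neuropilins, which bind class 3 semaphorins and also VEGF, rose in SCI. Nrp1 had 141, 265 and 195 CPM in HBO, 245, 184 and 175 CPM in SCI and 61.0, 77.4 and 70.9 CPM in sham. Every injured library lay above every sham library, and the SCI change was 1.53 ± 0.22 (log2 fold change ± SE, adjusted p = 0.00101). Nrp2 had 166, 182 and 172 CPM in HBO, 205, 177 and 155 CPM in SCI and 92.2, 87.9 and 100.2 CPM in sham, again without overlap, and the SCI change was 0.94 ± 0.12 (adjusted p = 0.000635). The highest Nrp1 values were in HBO 2 and SCI 1. These libraries had the highest summed fibroblast and meningeal markers of their groups, 12908 and 13544 CPM. They were also the highest of their groups for microglia and macrophages (2587 and 2672 CPM) and endothelium (499 and 585 CPM). Which of these lists Nrp1 follows was not tested.

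Among the 9 plexins, Plxnd1, Plxnb2, Plxnc1 and Plxnb1 rose in SCI and Plxna4 fell. Plxnd1, the receptor of Sema3e and a gene of vessels and immune cells, had the largest plexin change. It stood at 90.5, 143 and 95.8 CPM in HBO, 165, 150.4 and 98.5 CPM in SCI and 28.1, 31.1 and 38.0 CPM in sham. The lowest injured library was above the highest sham library, and the SCI change was 2.09 ± 0.23 (adjusted p = 0.000516). Plxnb2, a receptor of class 4 semaphorins, had 255, 347 and 281 CPM in HBO, 395, 326 and 291 CPM in SCI and 119, 143 and 148 CPM in sham. It too showed no overlap between injured and sham libraries, with an SCI change of 1.30 ± 0.16 (adjusted p = 0.000572). Plxnc1, the receptor of Sema7a, rose by 0.96 ± 0.19 (adjusted p = 0.00372), a call lost when SCI 1, sham 3 and HBO 3 were left out together (0.79, adjusted p = 0.0568), whereas Sema7a was not called: it had 130, 107 and 120 CPM in HBO, 128, 106 and 119 CPM in SCI and 138, 120 and 143 CPM in sham, a SCI change of -0.18 ± 0.12 (adjusted p = 0.260). Plxna4, which acts with neuropilins as a receptor for class 3 semaphorins in neurons, fell by 0.66 ± 0.13 on the log2 scale in SCI (adjusted p = 0.00343). The smallest call was that of Plxnb1, the receptor of Sema4d, at 0.34 ± 0.11 (adjusted p = 0.0314), and it was lost without any 1 of the 6 SCI or sham libraries, with adjusted p of 0.0501 to 0.122. Plxna1, the usual partner of neuropilins, had 171, 187 and 146 CPM in HBO, 197, 182 and 151 CPM in SCI and 148, 137 and 140.4 CPM in sham. The SCI and sham libraries of Plxna1 did not overlap, but the change of 0.32 ± 0.13 did not pass the test (adjusted p = 0.0771).

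The upstream sequences of 4 receptors, 2 that rose and 2 that fell, are shown so that their letters can be read beside their changes. These 4 were chosen after their values were seen. RefSeq promoter windows, trimmed to the 250 bases before the annotated start, matched 58 of the 71 members by symbol and gave 74 windows. The motifs searched, on both strands, were the GC box GGGCGG, the AP-1 site TGANTCA and the TATA box TATAAA. The GC box was in 70.3% of the member windows and in 32.7% of the 32851 windows of the whole table. The AP-1 site was in 4.05% of member windows against 6.75% of all, and the TATA box in 2.7% against 12.4%. The member windows were also richer in G and C, with a median of 64.4% against 52.4%, and held a median of 15.5 CpG against 6.0. The whole table covers 27025 genes, tested here or not, and was not matched to the members by expression. Whether these gaps are particular to the members was not tested. A GC box was in 18 of the 23 windows of 19 members called higher in SCI. It was in 9 of the 13 windows of 10 members called lower, and in 25 of the 38 windows of 29 members not called. Windows of the same gene are not separate units, and every Robo2 window, counted among the 13, lacked a GC box. These shares therefore set no difference between rising and falling members. A match is a description of the letters only. The Plxnd1 window (GRCm38.p6, chr6:115995006-115995255, minus strand) and the Epha3 window (chr16:63864176-63864425, minus strand) belong to the receptors with the largest rises. Capitals mark the GC box. The Plxnd1 window held 1 and the Epha3 window none, and neither held the other motifs.
Plxnd1: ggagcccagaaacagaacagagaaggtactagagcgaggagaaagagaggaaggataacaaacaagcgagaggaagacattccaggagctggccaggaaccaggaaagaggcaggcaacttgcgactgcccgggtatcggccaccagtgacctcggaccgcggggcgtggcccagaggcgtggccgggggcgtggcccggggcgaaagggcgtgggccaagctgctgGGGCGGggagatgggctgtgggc
Epha3: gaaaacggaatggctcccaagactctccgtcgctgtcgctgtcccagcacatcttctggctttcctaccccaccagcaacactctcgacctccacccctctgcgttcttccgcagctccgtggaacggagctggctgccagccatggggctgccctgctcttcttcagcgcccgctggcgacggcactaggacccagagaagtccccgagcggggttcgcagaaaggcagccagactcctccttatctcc

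Of the 13 membrane semaphorins, 1 rose in SCI and none fell. Sema4c, a ligand of Plxnb2, had 39.9, 33.7 and 23.7 CPM in HBO, 49.5, 55.6 and 49.2 CPM in SCI and 28.2, 27.2 and 31.1 CPM in sham. The SCI libraries were above all libraries of the other groups, and the SCI change was 0.84 ± 0.17 (adjusted p = 0.00451). Its exons share 7.27% of their bases with D430040D24Rik on the opposite strand, and reads of both genes could not be told apart, since the strand setting of the counting is not given. Sema4d, an oligodendrocyte and immune cell ligand of Plxnb1, had 169, 183 and 169 CPM in HBO, 167, 165 and 169 CPM in SCI and 107, 151 and 145 CPM in sham. SCI lay above sham without overlap, with a change of 0.31 ± 0.13 that did not pass the test (adjusted p = 0.0790).

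The Eph receptors split by gene rather than by class in SCI: Epha2, Epha3 and Epha7 rose, Epha5, Epha6, Epha8 and Epha10 fell, and Ephb3 and Ephb4 rose with none of the 5 EphB receptors falling. Epha3, the receptor with the largest rise, had 14.4, 33.7 and 28.0 CPM in HBO, 25.4, 19.2 and 8.42 CPM in SCI and 2.71, 4.49 and 3.92 CPM in sham. Its spread was wide, SCI 3 being the lowest injured library, yet no injured library reached down to sham, and the SCI change was 2.25 ± 0.43 (adjusted p = 0.00346). SCI 3 also had the lowest fibroblast and meningeal marker sum of the injured libraries, 5779 CPM. It was likewise the lowest of them for Schwann cell (775 CPM) and neutrophil markers (29.6 CPM), and none of these links was tested. Epha2, a receptor of epithelia and vessels, had 9.90, 9.21 and 8.02 CPM in HBO, 13.0, 12.3 and 11.0 CPM in SCI and 3.11, 3.96 and 5.18 CPM in sham. The 3 groups occupied separate ranges, with SCI highest and sham lowest, and the SCI change was 1.56 ± 0.20 (adjusted p = 0.000697). Ephb4, known from venous endothelium, had 28.4, 44.7 and 27.7 CPM in HBO, 43.7, 33.3 and 34.6 CPM in SCI and 12.5, 15.0 and 19.0 CPM in sham, a rise of 1.26 ± 0.22 in SCI (adjusted p = 0.00241) with no overlap. Epha7 rose by 0.91 ± 0.22 and Ephb3 by 0.73 ± 0.20. Without SCI 1, sham 3 and HBO 3, Epha7 was not called (0.65, adjusted p = 0.0893). The call of Ephb3 was lost without sham 2 (0.66, adjusted p = 0.0645), sham 3 (0.72, adjusted p = 0.0509) or SCI 2 (0.57, adjusted p = 0.0719).

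**Figure D3:**
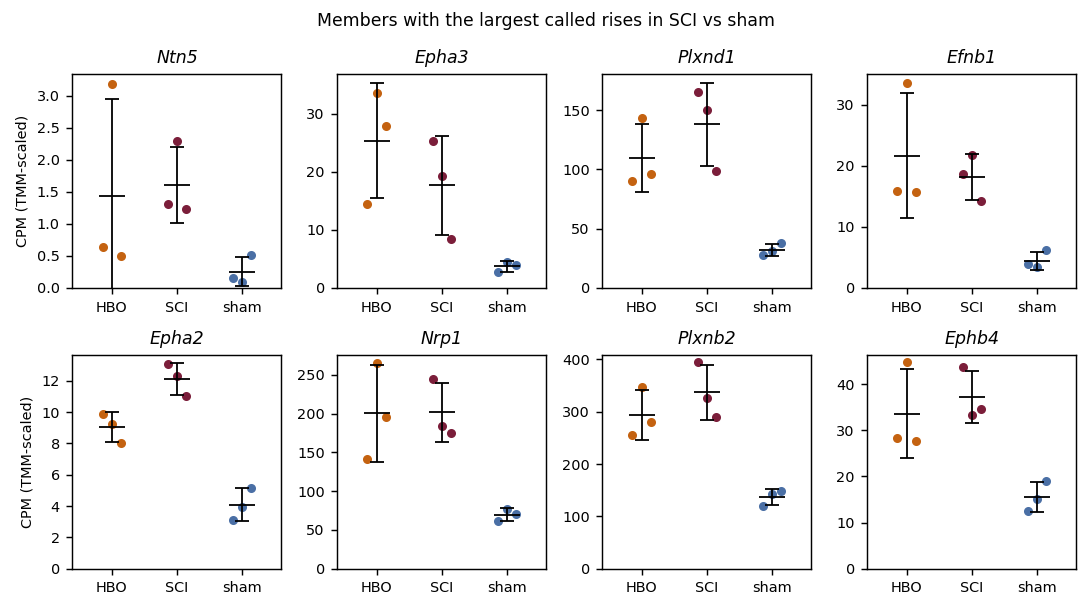
CPM (vertical axis) of the 8 members with the largest called rises in SCI vs sham, in the HBO, SCI and sham libraries (points), with the mean and SD as bars. For 7 of them the injured libraries lie above all sham libraries, and for Ntn5 the HBO and sham ranges meet.

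Of the falling Eph receptors, Epha10 fell most. This receptor, whose kinase domain is inactive in humans, had 36.4, 22.7 and 31.1 CPM in HBO, 20.8, 31.5 and 32.1 CPM in SCI and 78.3, 57.6 and 59.3 CPM in sham. No injured library reached the lowest sham library, and the SCI change was -1.21 ± 0.22 (adjusted p = 0.00259). Epha6, a receptor of neurons, had 23.7, 15.0 and 18.3 CPM in HBO, 8.55, 19.4 and 22.0 CPM in SCI and 41.1, 37.3 and 28.3 CPM in sham. Its injured libraries were all below sham, with SCI 1 lowest, and the SCI change of -1.10 ± 0.31 (adjusted p = 0.0191) was not called without sham 1 (-0.98, adjusted p = 0.0679) or sham 2 (-1.06, adjusted p = 0.0544). The lowest Epha10, Epha6 and neuron marker values of the injured groups were in the same libraries, SCI 1 and HBO 2, where neuron markers summed to 1489 and 1737 CPM. SCI 1 and HBO 2 were also the highest of their groups for fibroblasts and meninges, microglia and macrophages, and endothelium. Which of these lists Epha10 and Epha6 follow was not tested. Epha5 fell by 0.54 ± 0.14 and Epha8 by 0.69 ± 0.22. The call of Epha5 was lost without sham 2 (adjusted p = 0.0513) or SCI 1 (adjusted p = 0.0591), and that of Epha8 without any sham library, SCI 1 or SCI 3 (adjusted p of 0.0512 to 0.11). Epha4, a receptor for both ephrin classes studied in cord injury, had 54.5, 43.5 and 57.9 CPM in HBO, 38.2, 44.2 and 53.1 CPM in SCI and 58.3, 58.3 and 56.7 CPM in sham. SCI lay below sham without overlap, and the change of -0.35 ± 0.14 did not pass the test (adjusted p = 0.0791). Ephb2, a receptor of B-class ephrins, overlapped between groups, at 40.5, 45.9 and 32.2 CPM in HBO, 46.5, 44.2 and 39.0 CPM in SCI and 42.6, 34.8 and 36.5 CPM in sham, a SCI change of 0.19 ± 0.15 (adjusted p = 0.355).

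The window upstream of the RefSeq start of Epha10 (GRCm38.p6, chr4:124881535-124881784, plus strand) and that of Unc5a (chr13:54949161-54949410, plus strand), a netrin receptor described below, are shown beside those of the rising receptors as members that fell. The locus of Epha10 in the deposited data begins earlier, at chr4:124880899, so its window lies inside that locus. Capitals again mark the GC box, here on the opposite strand as CCGCCC. There are 2 in the Epha10 window and 5 in the Unc5a window, where neighbouring matches overlap, and no AP-1 site or TATA box was found in either.
Epha10: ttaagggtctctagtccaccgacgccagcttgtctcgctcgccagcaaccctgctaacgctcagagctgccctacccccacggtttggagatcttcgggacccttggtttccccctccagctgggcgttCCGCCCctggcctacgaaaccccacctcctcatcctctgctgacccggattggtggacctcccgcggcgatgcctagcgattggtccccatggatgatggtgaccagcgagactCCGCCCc
Unc5a: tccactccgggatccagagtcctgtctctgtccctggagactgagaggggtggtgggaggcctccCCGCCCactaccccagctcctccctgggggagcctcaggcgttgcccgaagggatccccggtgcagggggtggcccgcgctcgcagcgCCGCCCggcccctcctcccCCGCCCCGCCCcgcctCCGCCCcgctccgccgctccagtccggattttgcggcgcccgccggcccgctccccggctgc

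The ephrins, the ligands of these receptors, were divided as well. Efnb1 and Efnb2, transmembrane ephrins of the B class, rose in SCI. Efnb1 had 15.8, 33.5 and 15.6 CPM in HBO, 18.7, 21.7 and 14.2 CPM in SCI and 3.91, 3.34 and 6.14 CPM in sham, with no injured library near sham and an SCI change of 2.02 ± 0.35 (adjusted p = 0.00218). Efnb2, the partner of Ephb4 in vessels, had 24.5, 45.7 and 33.0 CPM in HBO, 27.9, 33.4 and 23.7 CPM in SCI and 11.5, 11.9 and 15.8 CPM in sham, a rise of 1.12 ± 0.23 in SCI (adjusted p = 0.00505), also without overlap. Efnb3, the most abundant ligand by FPKM and a cue of oligodendrocyte myelin, fell by 0.44 ± 0.15 (adjusted p = 0.0386), a call lost without sham 1 (-0.40, adjusted p = 0.116), sham 3 (-0.40, adjusted p = 0.103), SCI 1 (-0.34, adjusted p = 0.143) or SCI 3 (-0.46, adjusted p = 0.0672).

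Of the 5 ephrin-A ligands, which are anchored in the membrane by a lipid, Efna1 rose and Efna3 and Efna5 fell. Efna1, first known as a cytokine-induced gene of human endothelium, had 8.28, 8.28 and 7.20 CPM in HBO, 8.35, 8.25 and 7.56 CPM in SCI and 4.87, 3.96 and 6.29 CPM in sham. The injured libraries were all above sham, with an SCI change of 0.67 ± 0.20 (adjusted p = 0.0217), and the call was lost without sham 1 (0.64, adjusted p = 0.0714), sham 2 (0.53, adjusted p = 0.0715), SCI 1 (0.65, adjusted p = 0.0616) or SCI 2 (0.65, adjusted p = 0.0556). Efna3 had 13.9, 7.43 and 9.18 CPM in HBO, 7.96, 11.0 and 11.2 CPM in SCI and 26.6, 18.8 and 21.8 CPM in sham. Each injured library was below each sham library, and the SCI change was -1.16 ± 0.24 (adjusted p = 0.00498), but it was not called without SCI 1, sham 3 and HBO 3 (-1.03, adjusted p = 0.0531). Of its exon bases, 14.1% are shared with Gm15998 on the opposite strand. Efna5, a repellent ligand for EphA receptors, had 18.7, 20.9 and 19.7 CPM in HBO, 15.0, 15.7 and 14.8 CPM in SCI and 28.0, 22.5 and 25.3 CPM in sham. Here the 3 groups formed separate ranges, with HBO between SCI and sham, and the SCI change was -0.74 ± 0.13 (adjusted p = 0.00213).

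**Figure D4:**
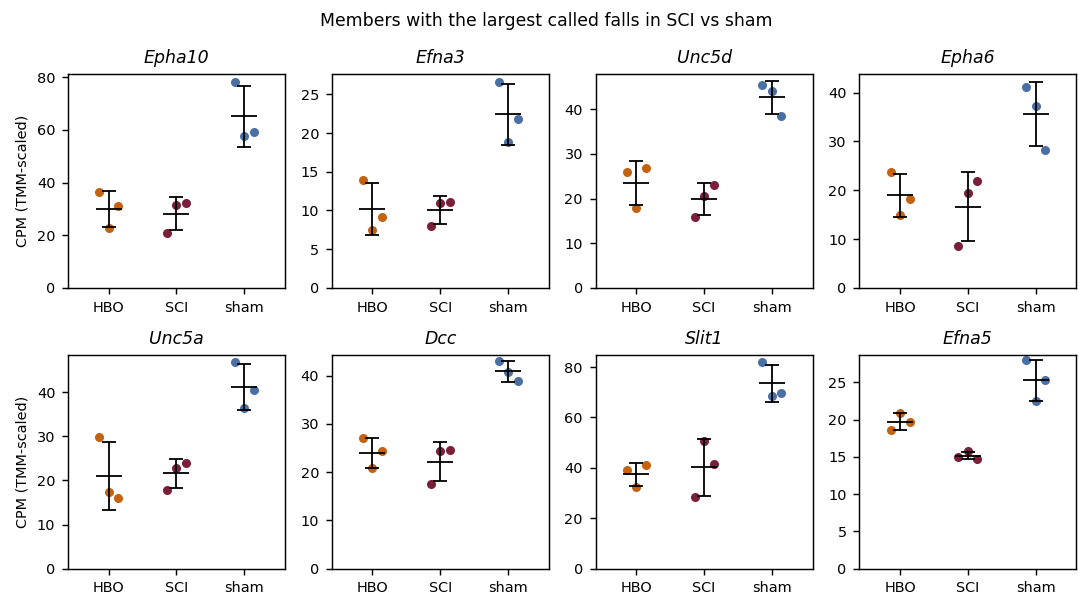
CPM (vertical axis) of the 8 members with the largest called falls in SCI vs sham, in the HBO, SCI and sham libraries (points), with the mean and SD as bars. In all 8 the injured libraries lie below the sham libraries, and in Efna5 the HBO libraries lie between SCI and sham.

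The netrin receptors moved in a single direction: Dcc, Unc5a, Unc5b and Unc5d fell in SCI, and none of the 5 rose. Unc5d, a repulsive receptor, had 26.0, 17.8 and 26.8 CPM in HBO, 15.9, 20.7 and 23.1 CPM in SCI and 45.5, 44.1 and 38.5 CPM in sham, a change of -1.10 ± 0.19 in SCI (adjusted p = 0.00201). Unc5a, the receptor whose upstream window is given above, had 29.8, 17.3 and 16.0 CPM in HBO, 17.8, 22.9 and 24.1 CPM in SCI and 46.8, 36.3 and 40.6 CPM in sham, a change of -0.93 ± 0.23 (adjusted p = 0.0100) that was not called without SCI 1, sham 3 and HBO 3 (-0.82, adjusted p = 0.0616). Dcc, the attractive netrin receptor, had 27.0, 20.8 and 24.3 CPM in HBO, 17.6, 24.4 and 24.6 CPM in SCI and 43.0, 40.8 and 38.8 CPM in sham, a change of -0.88 ± 0.15 (adjusted p = 0.00241). For all 3 the injured and sham ranges were apart. Unc5b, also found in vessels, had 87.6, 68.7 and 64.8 CPM in HBO, 77.8, 70.0 and 72.5 CPM in SCI and 103, 115 and 87.3 CPM in sham. HBO 1 overlapped with sham 3 while SCI did not overlap, and the SCI change of -0.47 ± 0.14 (adjusted p = 0.0239) was not called without sham 1 (-0.46, adjusted p = 0.0691), sham 2 (-0.38, adjusted p = 0.0903), SCI 2 (-0.44, adjusted p = 0.0728) or SCI 3 (-0.47, adjusted p = 0.0600). The SCI change of Unc5c, -0.28 ± 0.11, did not pass the test (adjusted p = 0.0743).

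Among the netrins themselves, Ntn1, the main attractant of the family, varied within every group. It had 62.3, 81.0 and 38.3 CPM in HBO, 75.7, 23.9 and 61.1 CPM in SCI and 9.73, 36.3 and 38.7 CPM in sham. The groups overlapped, and the SCI change of 0.92 ± 0.51 did not pass the test (adjusted p = 0.186). Ntn5, a netrin-like gene, was low everywhere, with 56 counts over the HBO libraries, 70 over SCI and 10 over sham. Its CPM were 0.637, 3.17 and 0.496 in HBO, 1.30, 2.29 and 1.22 in SCI and 0.160, 0.0880 and 0.518 in sham. SCI exceeded sham in every library, with a change of 2.56 ± 0.83 (adjusted p = 0.0341), while HBO overlapped with sham. That call was lost without sham 1 (2.31, adjusted p = 0.11), sham 2 (2.19, adjusted p = 0.107), SCI 1 (2.70, adjusted p = 0.0563) or SCI 2 (2.22, adjusted p = 0.0972), and 23.4% of the exon bases of Ntn5 are shared with Sec1 on the opposite strand.

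In the Slit and Robo system, Slit1, Robo1 and Robo2 fell in SCI and Robo4 rose. Slit1, a repellent made by neurons, had 39.0, 32.4 and 41.2 CPM in HBO, 28.3, 50.8 and 41.6 CPM in SCI and 82.1, 68.6 and 69.7 CPM in sham. All injured libraries were below sham, and the SCI change was -0.87 ± 0.19 (adjusted p = 0.00655). Robo1, a Slit receptor of axons, had 104, 105 and 107 CPM in HBO, 98.6, 101 and 97.8 CPM in SCI and 141, 125 and 124 CPM in sham. It varied little within groups, with the injured libraries below sham, and the SCI change was -0.39 ± 0.09 (adjusted p = 0.00752), not called without SCI 1, sham 3 and HBO 3 (-0.42, adjusted p = 0.0594). Robo2, another Slit receptor of axons, had 90.7, 72.6 and 119 CPM in HBO, 79.7, 89.4 and 95.4 CPM in SCI and 135, 144 and 121 CPM in sham. Its HBO 3 value came close to sham 3 without reaching it, and the SCI change of -0.59 ± 0.16 (adjusted p = 0.0178) was not called without sham 1 (-0.59, adjusted p = 0.0523), sham 2 (-0.54, adjusted p = 0.0609) or SCI 1 (-0.52, adjusted p = 0.0731). Robo4, the Robo of endothelium, rose by 0.71 ± 0.16 (adjusted p = 0.00598).

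Genes that act with the guidance receptors were counted in 2 lists from the same fit. Of 47 genes of signalling inside the growth cone, 10 rose and 14 fell in SCI (21.3% and 29.8%, against 20.0% higher and 16.6% lower among all genes tested), with a median log2 fold change of -0.01 against 0.00 over all genes. Mical1, an actin-oxidising enzyme downstream of plexins, rose by 1.37 ± 0.18 (adjusted p = 0.000664). The tyrosine kinase Fes rose by 1.65 ± 0.22 (adjusted p = 0.000708). Pak3, a kinase of neurons that acts on the cytoskeleton, fell by 1.00 ± 0.18 on the log2 scale (adjusted p = 0.00277). Of 24 other cues and co-receptors, 6 rose and 7 fell (25% and 29.2%, beside the same 20.0% and 16.6%), with a median of 0.10. Sdc1, a heparan sulfate proteoglycan, rose by 2.28 ± 0.31 (adjusted p = 0.000807). Flrt2, a repellent ligand of Unc5d, rose by 0.87 ± 0.16 (adjusted p = 0.00314), while Flrt1 fell by 0.85 ± 0.17 (adjusted p = 0.00377).

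HBO was then set against SCI, the comparison that asks what oxygen treatment changed among injured cords. None of the 69 members was called by edgeR, as was none of the 17901 genes tested, so 0.0% were called. DESeq2 called 0 members and 26 of 24929 genes. At an unadjusted p under 0.05 edgeR gave 5 members (7.25%), all ligands, against 749 genes (4.18%). The HBO and SCI libraries did not overlap for 8 members (11.6%), against 8.03% of all genes: Efna5, Robo1, Sema4d and Slit2 were higher in each HBO library, and Epha2, Sema3f, Sema4a and Sema4c were lower. The median log2 fold change of the members was -0.01.

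The 6 members with the smallest unadjusted p in HBO vs SCI were apart between these groups, and none passed the adjustment. Sema4c, at 39.9, 33.7 and 23.7 CPM in HBO against 49.5, 55.6 and 49.2 CPM in SCI, had the largest of these changes, -0.66 ± 0.17 (unadjusted p = 0.00273, adjusted p = 0.916, edgeR). The HBO libraries lay across the sham range of 27.2 to 31.1 CPM. Slit2, a repellent of the embryonic floor plate, had 104, 119 and 88.7 CPM in HBO, 58.5, 85.9 and 85.2 CPM in SCI and 114, 105 and 95.8 CPM in sham. HBO overlapped with sham and SCI lay below both, with a change of 0.44 ± 0.16 in HBO vs SCI (unadjusted p = 0.0219, adjusted p = 0.959) and of -0.46 ± 0.16 in SCI vs sham (adjusted p = 0.0505). The SCI vs sham change of Slit2 was called with RLE size factors (adjusted p = 0.0464), in a fit of SCI and sham alone (adjusted p = 0.0489) and by DESeq2 (adjusted p = 0.0359). Efna5, with the values given above, was 0.38 ± 0.13 higher in HBO (unadjusted p = 0.0123), and Epha2 had a change of -0.42 ± 0.19 (unadjusted p = 0.0547). For Sema4c, Efna5, Slit2 and Epha2, HBO lay on the sham side of SCI. The members were picked by their HBO vs SCI difference, and the same SCI libraries enter SCI vs sham. That choice by itself favours such a placement, so no reversal by oxygen can be read from it.

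**Figure D5:**
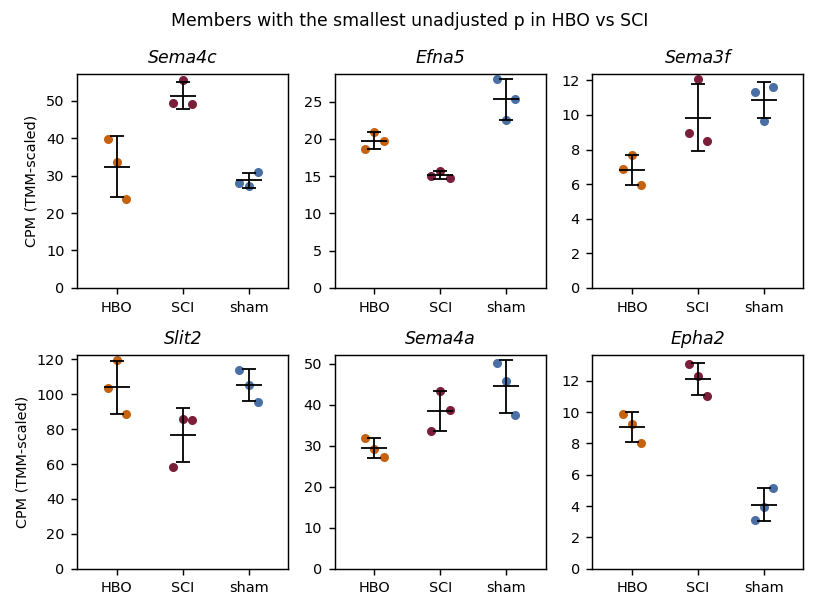
CPM (vertical axis) of the 6 members with the smallest unadjusted p in HBO vs SCI, in the HBO, SCI and sham libraries (points), with the mean and SD as bars. HBO and SCI do not overlap in any of the 6, none of which passed the adjusted test.

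In Sema3f and Sema4a, HBO lay below both SCI and sham. Sema3f, a repellent that acts through Nrp2, had 6.86, 7.66 and 5.96 CPM in HBO, 8.94, 12.1 and 8.50 CPM in SCI and 11.3, 9.68 and 11.6 CPM in sham, a change of -0.52 ± 0.19 in HBO vs SCI (unadjusted p = 0.0184). Sema4a, a semaphorin of immune cells, had 31.9, 29.3 and 27.2 CPM in HBO, 33.5, 43.3 and 38.7 CPM in SCI and 50.3, 45.7 and 37.5 CPM in sham, a change of -0.39 ± 0.14 (unadjusted p = 0.0222). In both the HBO libraries were the lowest of all 9. The adjusted p was 0.959 for Efna5, Sema3f, Slit2, Sema4a and Epha2.

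HBO against sham, which uses the same sham libraries as the comparison of SCI with sham, had 16 members higher and 17 lower of 69 (47.8%), against 30.9% of all genes. The higher calls made up 23.2% of members against 17.4% of all genes, and the lower calls 24.6% against 13.5%. At an unadjusted p under 0.05 there were 42 members (60.9%), against 42.4% of all genes. HBO and sham did not overlap for 38 members (55.1%), against 47.2% of all genes. The count of lower calls depended on single libraries, being 6 without sham 1, 9 without HBO 2 and 11 without sham 3 or HBO 3. Calls over all genes, in either direction, fell in these fits too, from 30.9%. They were 16.8% without sham 1, 17.6% without HBO 2, 24.9% without sham 3 and 24.1% without HBO 3. Side by side, Plxnd1 was 1.76 ± 0.23 above sham in HBO and 2.09 ± 0.23 in SCI on the log2 scale, and Epha3 2.77 ± 0.44 in HBO and 2.25 ± 0.43 in SCI. Nrp1 was 1.52 ± 0.22 above sham in HBO and 1.53 ± 0.22 in SCI, and Efnb1 2.27 ± 0.35 in HBO and 2.02 ± 0.35 in SCI. Among members that were lower, Epha10 had a change of -1.11 ± 0.22 in HBO and -1.21 ± 0.22 in SCI, and Slit1 -0.97 ± 0.19 in HBO and -0.87 ± 0.19 in SCI. Of the pathway lists, 7 of 47 growth cone genes were higher (14.9%) and 16 lower (34.0%) in HBO than in sham, and 4 of 24 other cues and co-receptors were higher and 4 lower (16.7% each), against 17.4% higher and 13.5% lower among all genes tested.

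Calls differed between the comparisons with sham for 10 members. Efna5, Efnb3, Ntn5, Plxnb1, Sema3g and Sema4c passed the test in SCI and not in HBO. Sema3f, Sema4a, Sema4g and Sema6b passed in HBO and not in SCI, all 4 being lower. None of these 10 was called in HBO vs SCI, which tests that difference directly, and the split of the 10 depended on the method. DESeq2 also called Sema4g in SCI vs sham (-0.43, adjusted p = 0.0477). In HBO vs sham, Efna5 was also called with RLE size factors (-0.36, adjusted p = 0.0498) and by DESeq2 (-0.36, adjusted p = 0.0473), and Ntn5 with no filter on low counts (2.40, adjusted p = 0.0449) and by DESeq2 (2.46, adjusted p = 0.0216). Without SCI 1, sham 3 and HBO 3, Ntn5 (3.82, adjusted p = 0.0374) and Sema3g (1.03, adjusted p = 0.0183) were called and Sema3f (-0.53, adjusted p = 0.153) and Sema6b (-0.39, adjusted p = 0.298) were not. Sema6b was also lost in a fit of HBO and sham alone (-0.58, adjusted p = 0.0659). In HBO vs sham, Sema3f changed by -0.67 ± 0.19 (adjusted p = 0.0220) and Sema4a by -0.59 ± 0.14 (adjusted p = 0.0124). The call of Sema3f was lost without sham 1 (-0.64, adjusted p = 0.073), sham 3 (-0.62, adjusted p = 0.0645) or HBO 3 (-0.58, adjusted p = 0.0678), and that of Sema4a without sham 1 (-0.50, adjusted p = 0.0567). Sema4g had 27.0, 26.6 and 30.5 CPM in HBO, 24.0, 37.8 and 28.7 CPM in SCI and 43.1, 38.8 and 39.7 CPM in sham. Both injured groups were below sham in every library, and the HBO change was -0.53 ± 0.16 (adjusted p = 0.0290). Sema6b, a ligand of A-class plexins, had 42.5, 38.6 and 30.3 CPM in HBO, 38.4, 44.0 and 35.6 CPM in SCI and 67.1, 39.3 and 61.2 CPM in sham, where sham 2 fell within the injured range. Its HBO change was -0.59 ± 0.20 (adjusted p = 0.0460). Without 1 library, the calls of Sema4g and Sema6b were lost in 5 and 7 of 9 fits, with adjusted p of up to 0.0977 for Sema4g and 0.175 for Sema6b.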

How the data were processed

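Total RNA of 9 spinal cord libraries was sequenced. The authors deposited per gene a raw read count and an FPKM value, which they normalised to gene length and library size. The aligner was HISAT2 and the genome GRCm38 (mm10), per the submitters' processing notes. The counting tool, its strand setting and the annotation release were not given in the sources used here. Counts were filtered with filterByExpr, scaled by TMM and tested with edgeR 4.0.16 (glmQLFit and glmQLFTest, 1 mean per group, all 9 libraries in one fit), with Benjamini-Hochberg adjustment over 17901 genes and a threshold of 0.05. The standard error was taken as |log2 fold change| over the root of the F statistic. CPM use TMM-scaled library sizes. FPKM was used only to set levels of different genes side by side. Coverage limits low genes most, as for Ntn5. The test was also run on simulated counts with known changes. Far fewer genes were changed there than were called against sham here, so that run does not vouch for those comparisons.

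Alternatives were RLE size factors, no filter, a fit of the compared groups alone, DESeq2 1.42.0, the replicate number as a block and each library left out. An additional fit without SCI 1, sham 3 and HBO 3 was chosen after seeing the data. Of all libraries, SCI 1 had the highest muscle markers and HBO 3 the highest neutrophil markers. Sham 3 had the highest Schwann cell markers of sham only (584 CPM), below every injured library (775 to 1655 CPM). The members, gene lists and marker lists were chosen with earlier results of these data known. Values in every library are given for the 8 largest called rises and falls in SCI vs sham with a mean of 1 CPM or more, the 6 smallest p in HBO vs SCI, members called in HBO vs sham only, and a panel of 18 well-known members. Of each pathway list, the 3 genes with the smallest p in SCI vs sham are given by their change only. Opposite-strand overlap of exons, from GENCODE M21, was at most 2.68% for called members other than those named with it.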

Additional observations from a re-analysis of the deposited data

How the results depend on the processing

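No member was called in HBO vs SCI under any alternative run, and no called member changed sign in any. Without each library in turn, SCI vs sham gave 15 to 23 members higher and 10 to 17 lower, with 24 of the 35 calls kept in all 9 fits, and HBO vs sham gave 12 to 18 higher and 6 to 17 lower, with 18 of 33 kept. Of all genes, these fits called 23.8% to 37.0% in SCI vs sham, against 36.6% with all libraries. In HBO vs sham they called 16.8% to 31.8%, against 30.9%. With SCI 1, sham 3 and HBO 3 left out together, chosen after seeing the data, 9 members were called lower in SCI vs sham and 9 in HBO vs sham, a fit with fewer libraries. That fit called 19.3% of all genes in SCI vs sham and 21.9% in HBO vs sham. It lost 10 of the 35 calls in SCI vs sham, 5 of them (Efna3, Epha7, Plxnc1, Robo1 and Unc5a) among the 24 kept above, and Sema3c, not called, turned from -0.14 to 0.037 in SCI vs sham. The replicate block called Plxna4os1 in SCI vs sham (1.78, adjusted p = 0.0407) and gave 10 members lower in HBO vs sham, against 17 without it, and the cause was not tested. With the block, 24.9% of all genes were called in HBO vs sham, against 30.9% without it. The replicate numbers gave no sign of pairing: deviations of same-numbered libraries correlated at -0.179 to 0.138, and a library correlated best with its own number in 3 of 18 cases. With 3 libraries per group this check cannot exclude a pairing or a shared batch. RLE size factors, no filter, a fit of the compared groups alone and DESeq2 left the counts of calls within 1.5 times. Depth limits Ntn5, with 10 counts over the sham libraries.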
